A study of Sus scrofa with 20 samples.

Results

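The 49 LT-only tags are short cDNA tags that were found in longissimus muscle of Lantang (LT) pigs and not in that of Landrace (LR) pigs. They were selected on their copy numbers from 801159 distinct tags of digital gene expression (DGE) libraries. A tag was taken when it had at least 10 copies in each of the 8 LT libraries from 35 days post coitus (dpc) to 90 days postnatal (dpn). It also had to have 0 copies over all 10 LR libraries, both for the tag itself and for every tag 1 base away from it after the first 4 bases. The breed difference of these tags is therefore how they were chosen, and no breed test is given for them.

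Lantang is a Chinese indigenous breed that grows slowly and deposits much fat, and Landrace is a lean breed that grows fast. Purebred sows of both breeds had been artificially inseminated with semen of purebred boars, and no genotype or treatment beyond the breed distinguished the groups. Longissimus muscle was taken from male fetuses at 35, 49, 63, 77 and 91 dpc and from boars at 2, 28, 90, 120 and 180 dpn, and the older boars had been castrated. RNA of 3 animals was pooled in equal amounts for each breed and stage, and 1 library was made from each pool, without replicates, and the levels of single animals cannot be seen.

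In DGE profiling, NlaIII cuts cDNA at CATG, and the bases that follow the site nearest the poly(A) tail are read. A tag is counted by its exact letters. A transcript with another base within the tag, or without the same last CATG, gives a different tag, so that the copy number of a tag depends on the sequence of a transcript as well as on its amount. Before birth, skeletal muscle forms its fibers in successive waves, and after birth the existing fibers grow and take on their contractile and metabolic types. Reference transcript sequences were not used here, so the tags are given by sequence and not by gene, what their transcripts do is not stated, and the labelled tissue was not checked against marker genes.

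LT libraries held 2615631 to 5322022 clean tags, and LR libraries 2157111 to 4706547. One copy stood for 0.188 to 0.464 TPM (copies per 1000000 clean tags of a library). In LR, 3 copies stood for 0.637 to 1.39 TPM. This is the upper limit for a true count of 0 in a single library, for counting error alone. Tags with 1 copy had been removed from each library, so a tag read once in an LR library would also be listed at 0. The limit for a tag listed at 0 is therefore higher, and it was not computed. The LR libraries of 120 and 180 dpn stood apart, with a further CATG in 0.116% and 0.224% of their clean tags, against 2.14% to 3.80% in LT. When these 2 libraries were left out of the rule, 50 tags met it.

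The 12 most abundant LT-only tags are shown with the NlaIII site in capitals, because they carry the levels described next. Tags are numbered by their mean TPM over the 8 LT libraries of the rule, highest first.
tag 1: CATGttctaataaacttctac
tag 2: CATGgcttgtatgagaagaaa
tag 3: CATGtgttttaagcaaaatgg
tag 4: CATGggatactagttgggttc
tag 5: CATGgtaatttaagagacccg
tag 6: CATGttgtatttaggggtcta
tag 7: CATGtcttgcaagcctgtgtt
tag 8: CATGtggcagatgtaacattt
tag 9: CATGttgtaataaaattcagt
tag 10: CATGttcatcatagactagag
tag 11: CATGtggagtcgctgtgctgt
tag 12: CATGtgcactatgtgataaac

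The rule left few of the tags that were common in LT. Of 13211 tags with at least 10 copies in each of the 8 LT libraries (common LT tags hereafter, the 49 included), 13096 had copies of their own in LR. Another 66 had none but were kept out by LR copies of tags 1 base away. With the breeds exchanged, the same rule gave 41 LR-only tags out of 10042. No pair of the 49 tags lay 1 base apart, so that they were 49 separate sequences.

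Members at the limit were tags 1, 42, 43 and 49, the 4 tags with 10 copies in their lowest LT library of the 8, and 13 members had a lowest count of 10 to 12. On the other side, 8 tags with no LR copies missed the rule with a lowest LT count of 9. The most abundant of these had mean levels of 26.1, 6.64 and 6.34 TPM over the 8 LT libraries. No tag was kept out by 3 or fewer LR copies. The LR copies of a tag and of the tags 1 base away were also summed for the tags kept out. The smallest of these sums were 4, 6 and 9, in 2, 2 and 3 LR libraries, which were looked up after the values had been seen. One LR library weighed more than the others. Leaving out LR at 63 dpc admitted 5 further tags. Summed with the tags 1 base away, they had 10, 25, 26, 271 and 439 copies in that library and 0 in the other 9. Leaving out LR at 91 dpc or at 180 dpn admitted 1 tag each, and leaving out any of the remaining 7 admitted none.

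The LT-only tags were of moderate abundance. Their mean level over the 8 LT libraries ran from 4.83 to 116 TPM with a median of 13.3 TPM, and the median of the common LT tags was 16.03 TPM. Together they took between 0.0495% (95% Wilson interval 0.0472 to 0.0520) of the LT clean tags, at 120 dpn, and 0.135% (0.132 to 0.138), at 49 dpc. The interval covers counting error only, since PCR copies are not independent molecules. Their median level was 13.2, 12.2, 11.5, 12.2 and 12.2 TPM from 35 to 91 dpc and 14.7 TPM at 2 dpn. It was lower in the later libraries, at 8.97, 7.08, 7.31 and 8.52 TPM from 28 to 180 dpn. The median of the common LT tags was also lower after 2 dpn, at 8.83 to 10.6 TPM, against 14.5 to 17.3 TPM in the libraries up to 2 dpn. The medians did not move alike at 2 dpn itself. There the median of the LT-only tags was at its highest, 14.7 TPM. That of the common LT tags was at its lowest up to that stage, 14.5 TPM. All these levels are scaled by total clean tags, and the drop after 2 dpn depends on that scaling. From 2 to 28 dpn the median log2 ratio of the LT-only tags was -0.594 with it. With TMM scaling, which the tests below also use, it was -0.177.

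**Figure D1:**
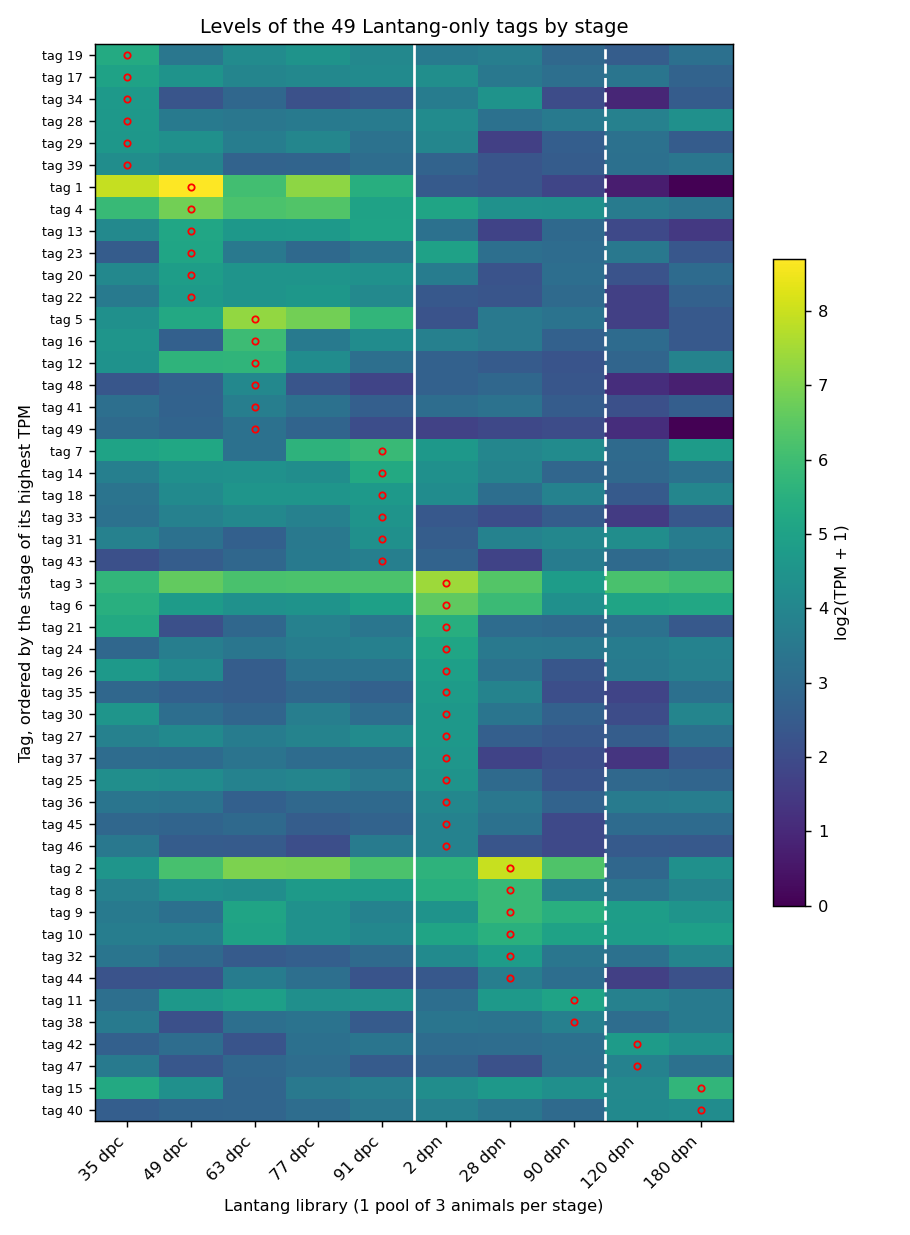
Levels of the 49 LT-only tags (rows) in the 10 LT libraries (columns) as log2(TPM + 1), ordered by the stage of the highest TPM, which a red circle marks. The solid line marks birth, and the dashed line sets off the libraries of 120 and 180 dpn, which the rule did not use; the circles fall in 9 of the 10 columns, with 13 at 2 dpn and 0 at 77 dpc.

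The LT-only tags did not share one stage. The highest level fell in 6 tags each at 35, 49, 63 and 91 dpc and at 28 dpn. It fell in 13 at 2 dpn, in 2 each at 90, 120 and 180 dpn, and in none at 77 dpc. The 13 tags with their highest level at 2 dpn made up 26.5%, where 18.05% of the common LT tags had it. For 35 dpc the share was 12.2%, against 26.3% of the common LT tags. Among the 8 libraries of the rule, the lowest level fell at 90 dpn in 18 tags (36.7%) and at 28 dpn in 11 (22.4%), against 33.5% and 29.4% of the common LT tags. These shares are descriptions of 1 library per stage. They rest on scaling by total clean tags and were not computed with TMM scaling, which shifts the libraries against each other. From 35 to 49 dpc, for example, the median log2 ratio of the LT-only tags was -0.031 by total clean tags and 0.392 with TMM scaling.

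Tag 1 was the most abundant member and a prenatal tag. Its levels were 243, 413, 66.1, 149 and 42.8 TPM from 35 to 91 dpc. After birth they were 4.53, 3.90, 2.53 and 0.609 TPM at 2, 28, 90 and 120 dpn, and at 180 dpn it was listed at 0. Each prenatal library was above each postnatal one, and the level did not fall evenly before birth, since 63 dpc was below 77 dpc.

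Tag 2 had no such division. It was at 22.0, 69.9, 126, 121 and 74.4 TPM from 35 to 91 dpc and at 48.7 TPM at 2 dpn. At 28 dpn it reached 247 TPM, then 78.2 TPM at 90 dpn, 6.40 TPM at 120 dpn and 19.4 TPM at 180 dpn. The library of 28 dpn was the highest of the 10, and those of 120 and 180 dpn were the lowest.

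Tag 3 was present at a high level throughout. Its prenatal levels were 52.1, 96.6, 72.6, 74.4 and 73.3 TPM. Its postnatal levels were 170, 82.3, 26.8, 73.1 and 62.7 TPM, with the highest at 2 dpn and the lowest at 90 dpn. The prenatal and postnatal levels overlapped.

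Tags 4 and 5 were higher before birth. Tag 4 was at 56.5, 115, 74.9, 79.1 and 31.6 TPM from 35 to 91 dpc and at 33.1, 19.9, 19.7, 11.3 and 9.21 TPM from 2 to 180 dpn. Only its level at 91 dpc reached into the postnatal range, just below that at 2 dpn. Tag 5 was at 19.6, 37.4, 156, 113 and 51.3 TPM before birth and at 3.62, 10.3, 8.85, 2.13 and 4.43 TPM after it. The highest libraries of tag 5 were those of 63 and 77 dpc, later than those of tags 1 and 4, and its prenatal and postnatal levels did not overlap.

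Tags 6 to 11, like tags 2 to 5 and 12, were found at every stage, which the rule had required up to 90 dpn. Tag 6 ran from 19.7 to 93.1 TPM, highest at 2 dpn. Tag 7 ran from 7.01 TPM at 120 dpn to 59.0 TPM at 91 dpc, and its level of 8.41 TPM at 63 dpc was below the 35.0 and 48.3 TPM of the libraries before and after. Tags 8, 9 and 10 had their highest levels at 28 dpn, 57.5, 57.3 and 44.7 TPM, with lowest levels of 9.14, 8.27 and 11.8 TPM. Tag 11 ran from 7.93 TPM at 2 dpn to 31.6 TPM at 90 dpn. Tag 12 was at 20.6, 49.0 and 50.8 TPM at 35, 49 and 63 dpc, at 17.7 and 8.08 TPM at 77 and 91 dpc, at 3.79 to 6.09 TPM from 2 to 120 dpn and at 14.0 TPM at 180 dpn. Its lower levels began before birth, and at 180 dpn it was above its level at 91 dpc.

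**Figure D2:**
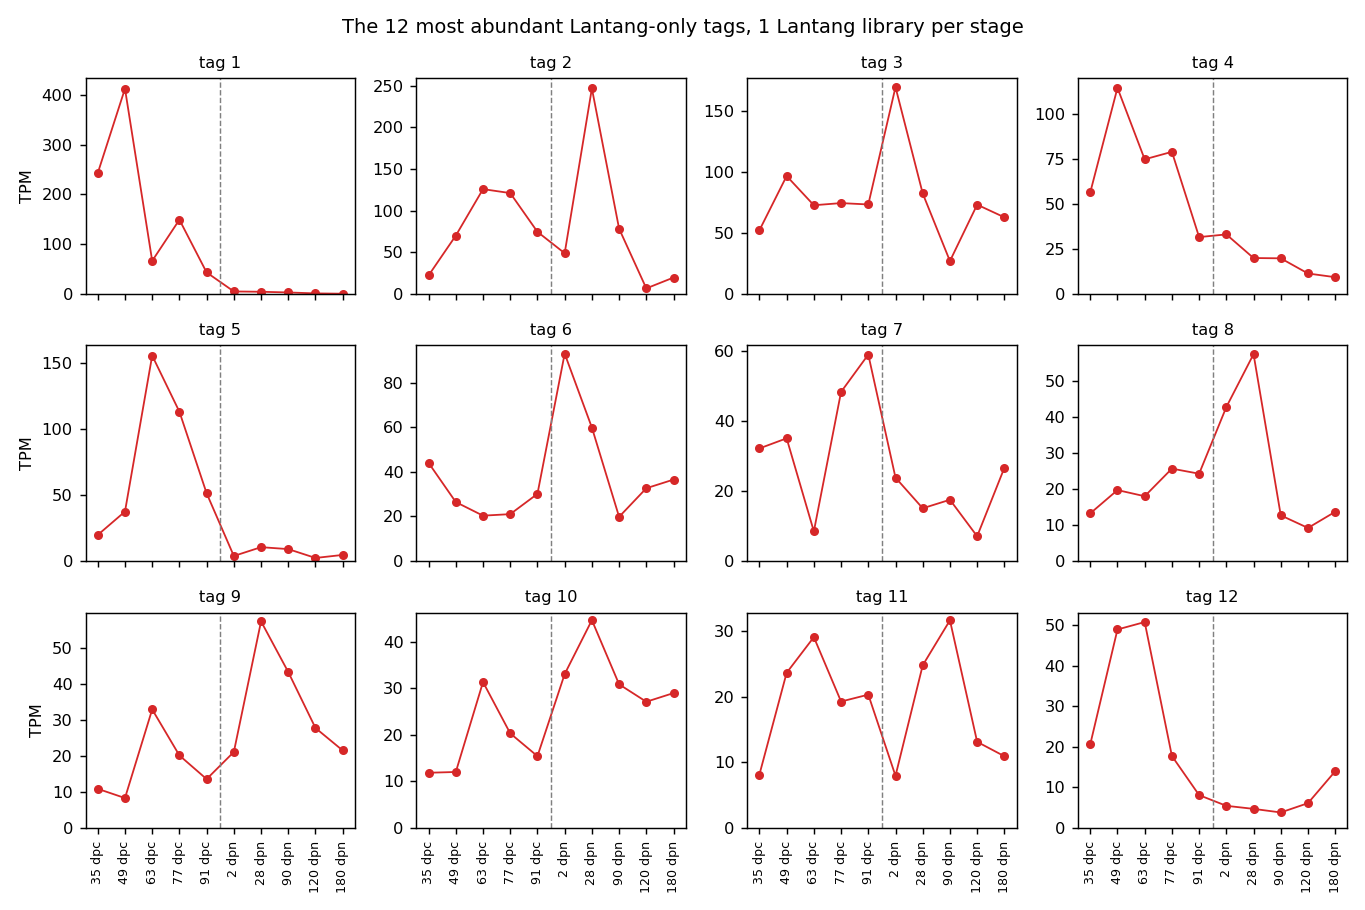
TPM of the 12 most abundant LT-only tags at each stage, 1 LT library per point, with birth as a dashed line and a separate axis per tag. Tags 1, 4 and 5 were high before birth, tags 8, 9 and 10 were highest at 28 dpn, and tags 3 and 6 at 2 dpn.

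The remaining 37 tags had means of 4.83 to 18.5 TPM. Among all 49 tags, the ratio of the highest to the median level over the 10 LT libraries was 17.4 for tag 1, 10.4 for tag 5, 5.80 for tag 16 and 5.62 for tag 34, which were its 4 highest values. Tag 16 was at 61.6 TPM at 63 dpc and at 4.43 to 22.3 TPM in the other 9 libraries. Tag 34 was at 25.0 TPM at 35 dpc and 20.9 TPM at 28 dpn, with 0.914 to 11.6 TPM elsewhere. The median of this ratio over the 49 tags was 2.81, and over the common LT tags 2.24.

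Whether the tags differed between fetal and postnatal muscle was asked with the 5 prenatal and the 5 postnatal LT libraries, in which each stage of a period was taken as a replicate. All 49 tags passed the filter on low counts. By edgeR's quasi-likelihood test with TMM scaling and Benjamini-Hochberg adjustment over 39461 tags, 17 of the 49 tags (34.7%) were called at an adjusted p below 0.05, against 33.1% of all tags tested and 30.2% of the common LT tags. Of these, 5 tags (10.2%) were higher before birth, against 17.0% of all tested and 8.14% of the common LT tags. The other 12 tags (24.5%) were higher after birth, against 16.1% and 22.0%. These shares were near those of the common LT tags. The number of calls rested in part on single libraries, in the LT-only tags and in the other tags alike. Without LT at 49 dpc 11 tags were called. The shares of all tested and of the common LT tags were then lower too, at 24.4% and 20.7%. The tags higher before birth were 3 in place of 5 without any one of 49, 63 and 77 dpc and 28 and 120 dpn. Among the common LT tags that share was then 5.13% to 6.62%. Without both 120 and 180 dpn, 10 tags were called, 1 higher before and 9 after birth. All tested tags were then called in 19.3% and the common LT tags in 18.5% of cases.

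The split between the directions rested on the scaling. With scaling by total clean tags, 12 of the 49 tags (24.5%) were called, against 43.2% of all tags and 33.3% of the common LT tags, and 11 of the 12 were higher before birth. All tested tags were called higher before birth in 36.7% and after birth in 6.56% of cases with that scaling, and the common LT tags in 25.9% and 7.35%. Over all tags tested, the median log2 ratio of prenatal over postnatal levels was 0.03 by TMM and 0.88 by total clean tags. Over the 49 tags it was -0.75 and 0.12. Both scalings called 6 tags in the same direction, tags 1, 5, 13, 22 and 33 higher before birth and tag 32 higher after it.

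Tag 1 had a mean of 183 TPM (SD 151, n = 5 stages) before birth and of 2.31 TPM (SD 1.98, n = 5) after it. Its log2 ratio by edgeR with TMM scaling was 5.39 (SE 0.86, adjusted p = 0.000702). Tag 5 had means of 75.5 TPM (SD 57.2) and 5.88 TPM (SD 3.53), with a log2 ratio of 2.73 (SE 0.64, adjusted p = 0.00545 by edgeR). Tag 13 (CATGcctgactttgaggacga) was at 15.9, 34.4, 23.7, 24.2 and 32.1 TPM before birth and at 8.38, 2.34, 6.83, 2.74 and 1.70 TPM after it. Its log2 ratio was 1.74 (SE 0.45, adjusted p = 0.0094 by edgeR), and its levels did not overlap between the periods.

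Tag 22 (CATGcagtattttttaagagc) was at 10.8 to 26.0 TPM before birth and 2.13 to 7.08 TPM after it. Its log2 ratio was 1.22 (SE 0.42, adjusted p = 0.0353 by edgeR). Tag 33 (CATGtgtgggtccatgcaggt), with 8.46 to 21.6 TPM before and 1.83 to 4.81 TPM after birth, had a log2 ratio of 1.12 (SE 0.39, adjusted p = 0.0404 by edgeR). The call of tag 22 was lost without any one of 7 LT libraries and that of tag 33 without any one of 8, and tags 5, 13, 22 and 33 all lost theirs without both 120 and 180 dpn. Tag 12 was among the 4 tags with the highest ratio of mean TPM, 29.3 TPM before and 6.80 TPM after birth, but it was called only with scaling by total clean tags (adjusted p = 0.0066 by edgeR).

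In the other direction, tag 32 (CATGagtataataaaatgatt) was at 4.59 to 9.47 TPM before birth and at 16.8, 27.1, 9.61, 8.53 and 14.7 TPM from 2 to 180 dpn. Its log2 ratio was -2.13 by TMM (SE 0.42, adjusted p = 0.00219 by edgeR) and -1.22 by total clean tags (adjusted p = 0.0311 by edgeR). The level at 35 dpc, 9.47 TPM, lay above that at 120 dpn. Tag 42 (CATGccgtgcaccgtggggac) was at 3.82 to 9.39 TPM up to 90 dpn and at 26.5 and 19.4 TPM at 120 and 180 dpn. Tag 9 had a mean of 17.1 TPM (SD 9.85) before and of 34.2 TPM (SD 15.8) after birth. Tag 35 (CATGtgcacactactgcatat) was at 4.97 to 6.43 TPM before birth, at 26.3 and 13.7 TPM at 2 and 28 dpn, and at 2.44 to 8.18 TPM later. Tags 42, 9 and 35 were called higher after birth with TMM scaling (adjusted p = 0.00924, 0.00911 and 0.0217 by edgeR) and not by total clean tags. Tag 42 lost its call without both 120 and 180 dpn, and tag 35 without 49 dpc or 2 dpn.

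By TPM, 7 of the 49 tags (14.3%) had all prenatal levels above all postnatal levels, tags 1, 5, 13, 20, 22, 33 and 49, against 20.4% of the common LT tags. None had all postnatal levels above all prenatal ones, against 3.72% of the common LT tags. The median log2 ratio of mean TPM was 0.12 for the LT-only tags and 0.51 for the common LT tags.

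**Figure D3:**
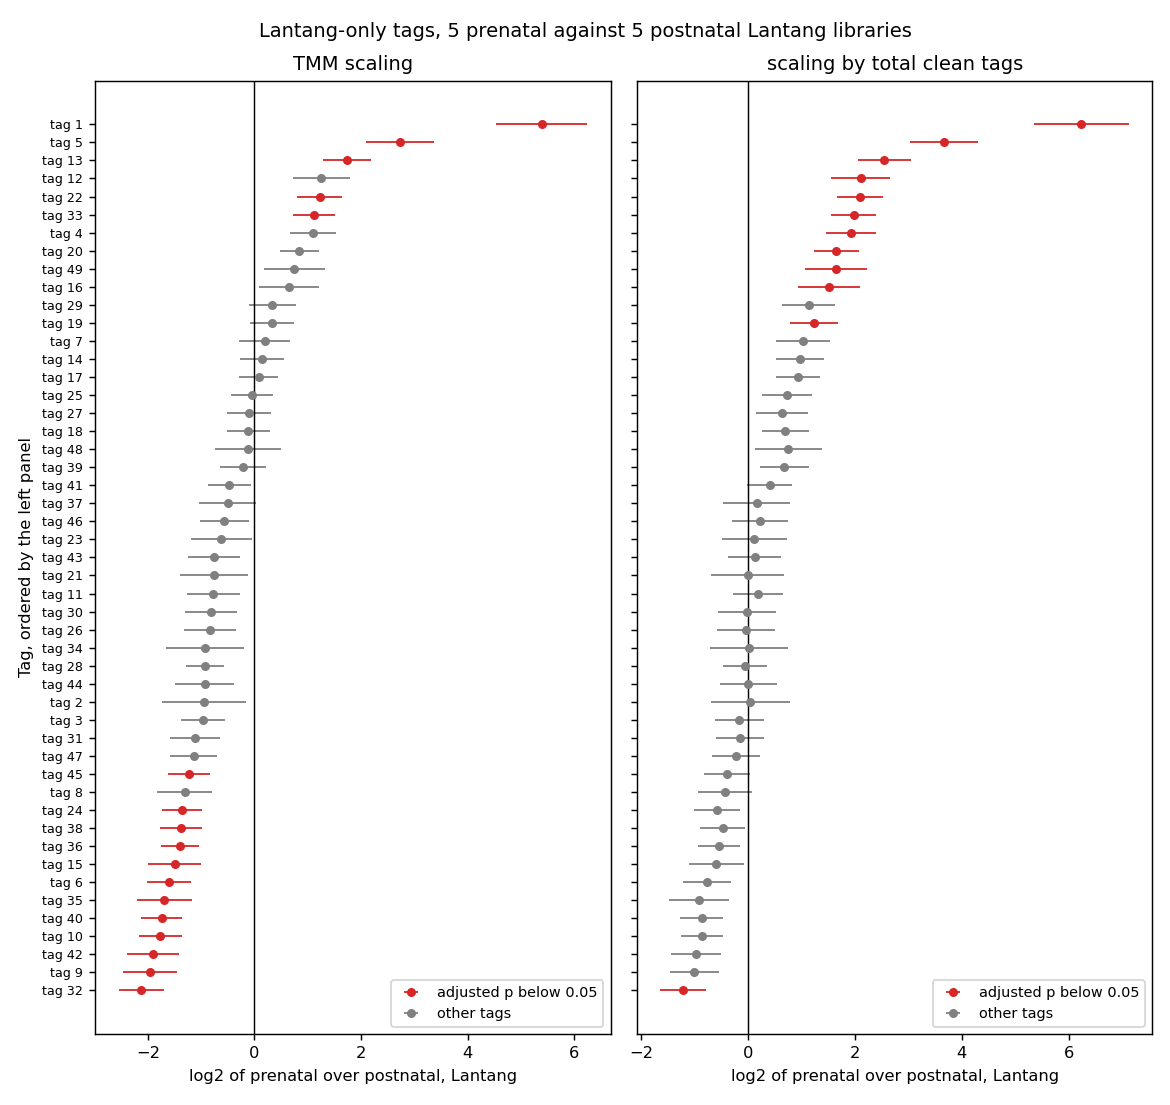
Log2 ratio of prenatal over postnatal levels of each LT-only tag in LT (points, with the SE as bars) by edgeR, scaled by TMM (left) or by total clean tags (right). Red points had an adjusted p below 0.05, 17 on the left and 12 on the right; the right panel lies farther toward prenatal levels, and tags 1, 5, 13, 22 and 33 were called in both.

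For neighbouring LT stages, the copy numbers of both libraries were set against each other in an exact binomial test (2-sided). A tag was called when p was under 0.009, the FDR under 0.02 and the log2 ratio beyond 0.5 in either direction. These tests compare 2 libraries and cover counting error only. The largest numbers fell around birth. From 91 dpc to 2 dpn, 28 of the 49 tags (57.1%) were called, 16 higher and 12 lower, against 9.7% of all tested and 50.9% of the common LT tags (24.6% higher and 26.3% lower). From 2 to 28 dpn 27 tags (55.1%) were called, 8 higher and 19 lower, against 9.92% of all tested and 48.3% of the common LT tags (10.9% higher and 37.4% lower). At 28 dpn more tags were lower than higher in both sets. The directions depended on the scaling here too. With TMM scaling, 22 LT-only tags were higher and 9 lower at 2 dpn (32.5% and 18.4% of the common LT tags), and 11 were higher and 12 lower at 28 dpn (17.2% and 22.8%).

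From 35 to 49 dpc 21 tags (42.9%) were called, 11 higher and 10 lower, against 5.11% of all tested and 32.3% of the common LT tags. With TMM scaling 15 were higher and 5 lower, and the common LT tags were higher in 21.9% and lower in 8.45%. The numbers then dropped. They were 13 (26.5%) from 49 to 63 dpc, against 3.36% and 24.5% (7 higher and 6 lower, but 4 and 11 with TMM scaling), 5 (10.2%) from 63 to 77 dpc, against 1.38% and 10.4%, and 7 (14.3%) from 77 to 91 dpc, against 1.1% and 10.7%. After 28 dpn they were 11 (22.4%) at 90 dpn, against 6.62% and 39.8%, 9 (18.4%) at 120 dpn, against 2.98% and 22.2%, and 5 (10.2%) at 180 dpn, against 1.9% and 11.5%. The LT-only share was above that of the common LT tags from 35 to 63 dpc and from 77 dpc to 28 dpn. It was below it from 63 to 77 dpc and in each step after 28 dpn. The widest gaps were those from 35 to 49 dpc and from 28 to 90 dpn. With TMM scaling the largest excess was from 91 dpc to 2 dpn, 63.3% against 50.8%. From 35 to 49 dpc the shares were then 40.8% and 30.3%, and from 28 to 90 dpn 26.5% and 41.96%. From 49 to 63 dpc the LT-only share was then below, at 30.6% against 32.6%. These differences were not tested. All 5 tags called at 180 dpn were higher than at 120 dpn. Most calls of this step were higher in the other tags too. They were 1825 higher and 831 lower over all tested tags, and 1159 and 358 among the common LT tags. With TMM scaling the common LT tags had 744 higher and 617 lower, and the LT-only tags again 5 higher and 0 lower.

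At least 1 call was found in 46 of the 49 tags (93.9%) over the 9 comparisons, and 3 or more in 24 (49.0%), against 87.3% and 44.97% of the common LT tags. Tag 2 had 8, every step except that from 63 to 77 dpc, among them a rise from 215 to 1266 copies between 2 and 28 dpn and a fall from 309 to 21 copies between 90 and 120 dpn. Tag 5 had 6, with a fall from 273 copies at 91 dpc to 16 at 2 dpn. Tag 1 fell over the same step from 228 to 20 copies. With an assumed coefficient of variation of 0.4 between libraries in edgeR's exact test, none of the 49 tags was called in any of the 9 comparisons, in which 0.00865% to 0.323% of all tested tags were called.

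The LT libraries of 120 and 180 dpn had not been used to choose the tags. At 120 dpn 38 of the 49 tags (77.6%) still had 10 or more copies, and at 180 dpn 45 (91.8%). Among the common LT tags the shares were 87.2% and 88.5%. All 49 tags were found at 120 dpn and 47 at 180 dpn, where tags 1 and 49 were listed at 0. Tag 49 (CATGctcagtacttttgttga) had 4 copies at 120 dpn and 10 to 30 copies in the 8 libraries of the rule. At 180 dpn a true count of 0 would allow up to 1.02 TPM, and a listed 0, which can hide 1 removed copy, more.

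The levels at these stages were mostly lower than from 2 to 90 dpn. The ratio of the mean TPM at 120 and 180 dpn to that at 2, 28 and 90 dpn was below 1 in 39 of the 49 tags (79.6%), against 65.3% of the common LT tags. Its median was 0.654, and that of the common LT tags 0.811. The lowest ratios were those of tag 1 (0.0834), tag 2 (0.104) and tag 48 (0.179), and tag 2 went from a mean of 125 TPM to 12.9 TPM. Tag 48 (CATGcagcttgcaaacacaga) had a mean of 5.31 TPM from 2 to 90 dpn, with 4 copies at 120 dpn and 2 at 180 dpn.

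The other 10 tags were higher at the late stages. The ratio was 2.94 for tag 42, 2.16 for tag 12 and 1.88 for tag 47 (CATGctttctcacatctccac). Tag 42 had 33 copies at 90 dpn, 87 at 120 dpn and 57 at 180 dpn. Tag 47 had 32, 44 and 25 copies in these libraries, and tag 15 (CATGttctgtcctgcagaaga) had its highest level of the 10 libraries at 180 dpn, 52.2 TPM, with 16.1 TPM at 120 dpn.

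**Figure D4:**
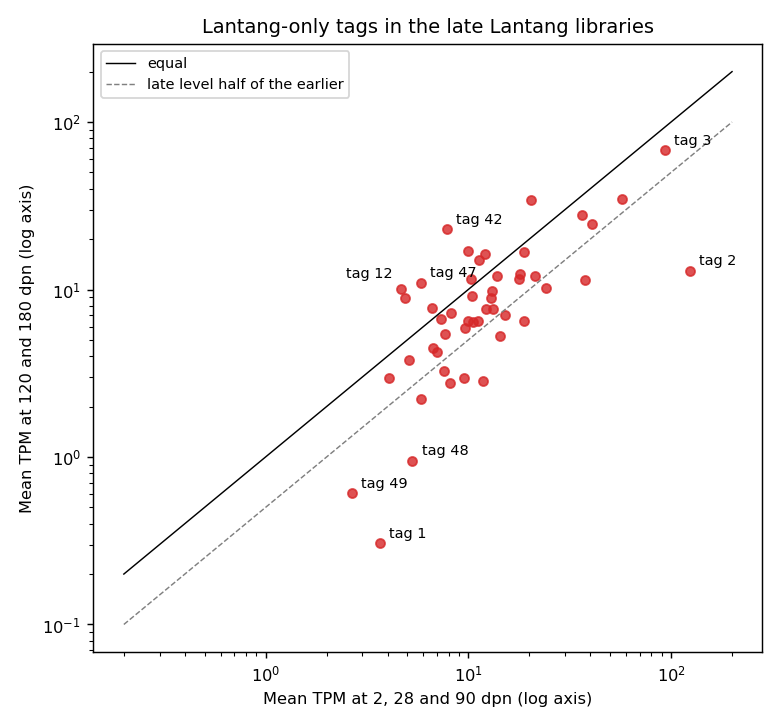
Mean TPM of each LT-only tag at 120 and 180 dpn against its mean at 2, 28 and 90 dpn, both on log axes, 1 point per tag. The solid line marks equal levels and the dashed line a late level of 0.5 times the earlier one; 39 points lie below the solid line, 14 of them below the dashed one, and tags 1, 2 and 48 lie farthest below.

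Some LT-only tags rose and fell together over the 10 LT libraries. Pearson's r of log2(TPM + 1) had a median of 0.130 over 1176 pairs of tags and ran from -0.916 to 0.944. The highest were those of tags 13 and 20 and of tags 1 and 4 (both 0.944). Tags 13, 20, 22 and 33 were alike among themselves in 4 further pairs (0.922 to 0.940), and they were followed by tags 9 and 10 and tags 5 and 22 (both 0.920) and by tags 27 and 37 (0.910). The points are the same 10 libraries for all pairs, which also share depth and the drop in median level after 2 dpn. Tags 1, 4, 5, 13, 20, 22 and 33 had higher mean TPM before birth than after it, tags 9 and 10 were highest at 28 dpn, and tags 27 and 37 at 2 dpn.

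The sequences of the LT-only tags were diverse. The GC share of the 17 bases after CATG ran from 11.8% in tag 32 to 82.4% in tag 27 (CATGggctccgtgggggtccc), with a median of 41.2%, as in the common LT tags. A further CATG was found in tag 33 alone (2.04%, against 3.16% of the common LT tags), and a run of 6 A in none (1.09%). AATAAA or ATTAAA, searched on the strand of the tag and not overlapping each other in any of the 49, stood in 4 tags (8.16%), against 3.21% of the common LT tags. AATAAA is the usual polyadenylation signal near the end of a transcript, and ATTAAA its most frequent variant. The 4 tags are shown with these letters in capitals, because they are the shared features that the rule did not use.
tag 1: catgttctAATAAActtctac
tag 9: catgttgtAATAAAattcagt
tag 17: catgagtATTAAAagcgattg
tag 32: catgagtatAATAAAatgatt
The 4 tags did not share a stage, since tag 1 was highest at 49 dpc, tag 17 at 35 dpc and tags 9 and 32 at 28 dpn.

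LR tags of slightly different sequence were searched for next, beyond the 1 base that the rule had excluded. Of the LT-only tags, 7 had an LR tag of at least 10 copies at 2 substitutions, and 4 had one at 1 inserted or deleted base within the tag, so that 10 tags had a counterpart of either kind and 39 had neither. In all, there were 17 counterpart tags. The same search was not made for the common LT tags, so these counts cannot be read as particular to the LT-only tags. Whether a tag and its counterpart come from the same transcript was not tested. The pairs that the description turns on are shown with the bases that differ, or the base present in one tag and not in the other, in capitals.
tag 3: catgtgttttaagcaaaatgg
counterpart of tag 3: catgGtgttttaagcaaaatg
tag 19: catgttaAgggaacaAggctg
counterpart of tag 19: catgttaGgggaacaGggctg
tag 29: catgcagtactAttgagagAt
counterpart of tag 29: catgcagtactCttgagagGt
tag 44: catggaggatgagcagTctgG
counterpart of tag 44: catggaggatgagcagCctgA
tag 21: catgaaaaagttcctgtggat
counterpart of tag 21: catgAaaaaagttcctgtgga
tag 43: catgctgtatttagaGggacT
counterpart of tag 43: catgctgtatttagaTggacA

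The counterpart of tag 3 was an abundant LR tag, with 4900 copies over all 10 LR libraries. Its LR levels were 165, 153, 175, 115 and 113 TPM before birth and 105, 295, 59.3, 74.0 and 61.6 TPM after it. In LT it was found at 35 dpc, with 163 copies, and at 2 dpn, with 345 copies, and not in the other 8 libraries, which had 106 to 491 copies of tag 3. At 35 dpc tag 3 made up 48.6% of the sum of both tags in LT (95% Wilson interval 43.1 to 54.1), and at 2 dpn 68.5%. At this depth, 8 LT pools had tag 3 alone, 2 had both tags, and all 10 LR pools had the counterpart alone. The sum of both tags in LT was 0.279 to 2.35 times the LR level of the counterpart, with a median of 0.647, and it was higher in LT at 2 of 10 stages.

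The counterparts of tags 29 and 44 were listed at 0 in all 10 LT libraries. That of tag 29 had 267 copies in LR and was found in all 10 LR libraries. Its LR levels were 5.20, 16.6, 10.8, 8.12 and 7.36 TPM before birth and 6.42, 3.44, 5.10, 0.875 and 4.15 TPM after it. Tag 29 in LT was at 23.0, 19.5, 11.9, 14.8 and 8.64 TPM before birth and at 14.7, 2.15, 5.06, 8.53 and 4.77 TPM after it. The LT level was 0.624 to 9.75 times the LR level of the same stage, with a median ratio of 1.18. It was higher at 8 of 10 stages, a direction that the LT minimum of the rule favours. A tag with the first of these changed bases alone (catgcagtactCttgagagat) had 78 copies in LT, 37 of them at 35 dpc, and was found in 8 LT libraries.

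The counterpart of tag 44 had 180 copies in 7 LR libraries, and it was listed at 0 from 90 to 180 dpn. Its LR levels were 15.2 and 14.7 TPM at 49 and 91 dpc, where tag 44 in LT was at 3.74 and 3.76 TPM. Tag 44 was the higher at 5 of the 7 stages at which the counterpart was found in LR. Among these were 63 and 77 dpc and 28 dpn, with tag 44 at 11.5, 8.12 and 12.3 TPM and the counterpart at 4.25, 1.62 and 2.75 TPM. Tag 44 and its counterpart did not follow the same course over the stages.

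The counterpart of tag 19 was found in both breeds, with 592 copies in all 10 LR libraries and 64 copies in 6 LT libraries. At 2 dpn LT had 49 copies of tag 19 and 24 of the counterpart, so that tag 19 made up 67.1% of both. The sum in LT was 0.451 to 2.19 times the LR level, with a median of 1.37. Tag 19 in LT was at 38.6, 9.84, 17.2, 20.95 and 15.6 TPM before birth and at 4.87 to 12.3 TPM after it. The counterpart in LR was at 17.3 to 27.6 TPM before birth and at 2.92 to 10.3 TPM after it, with no overlap between the periods.

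Tags 21 and 43 had counterparts that were common in both breeds. That of tag 21, with 1 more base in a run of A, had 1979 copies in LR and 735 in LT and was found in all 20 libraries, and tag 21 made up 10.6% to 62.1% of the sum in LT. That of tag 43 had 454 copies in LR and 781 in LT, and tag 43 made up 9.92% to 61.3% of the sum. The other counterparts belonged to tags 4, 5, 35 and 46, and tag 21 had a second one. The ratio of the LT sum to the LR level had a median of 11.9 for tag 5, 7.80 for tag 35 and 4.45 for tag 46. For the second counterpart of tag 21 it was 4.60. In these pairs it was above 1 at each stage at which the counterpart was found in LR, where the counterparts had 18 to 61 copies. Tag 4 had 7 counterparts that lacked 1 of its bases and differed from each other in that base and in the last one, and the 2 most abundant had 1671 copies in LR and 2244 in LT, and 2215 in LR and 743 in LT.

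**Figure D5:**
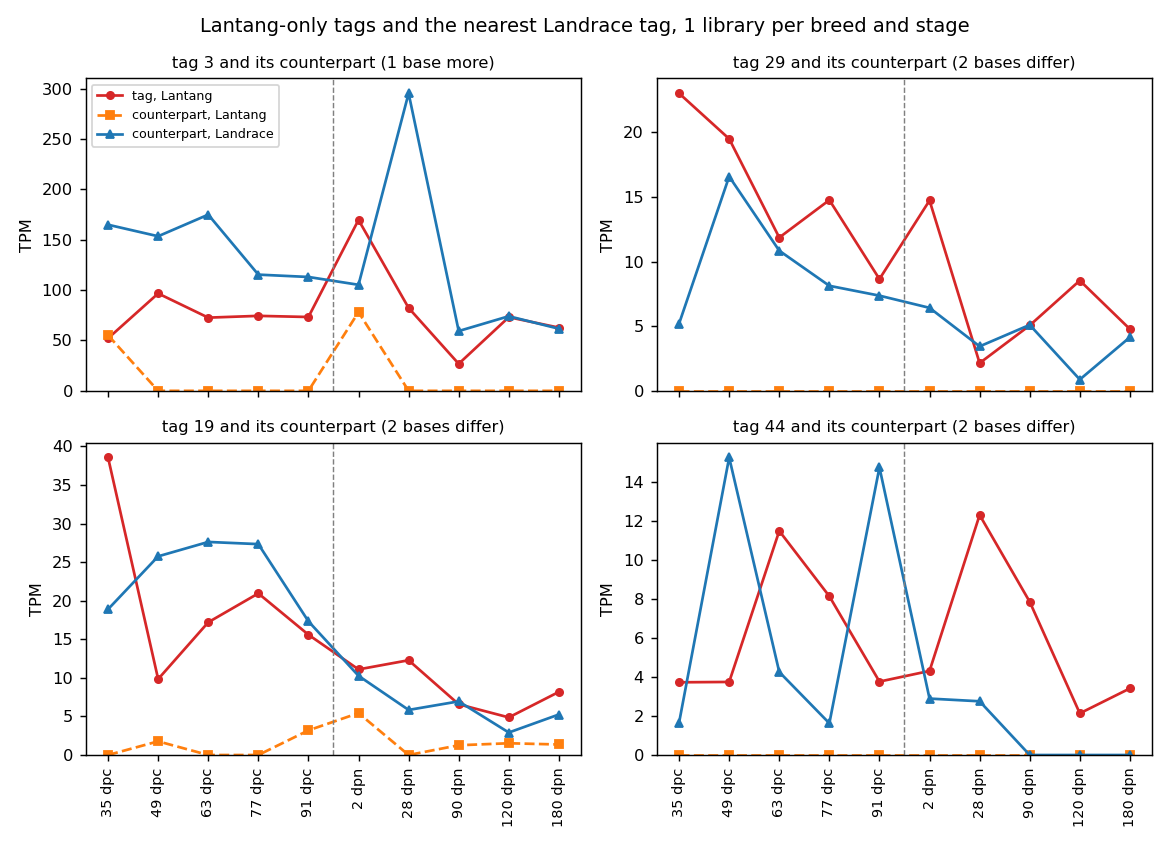
TPM by stage of 4 LT-only tags in LT (red circles), of the counterpart tag in LT (orange squares) and of the counterpart in LR (blue triangles), 1 library per point, birth as a dashed line. The counterpart of tag 3 appears in LT at 35 dpc and 2 dpn and stays at 0 in the other 8 LT libraries, and the counterparts of tags 29 and 44 stay at 0 in all 10.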

How the data were processed

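Muscle RNA of 20 pools of 3 pigs was sequenced as DGE tags. The authors filtered out adaptors, low-quality reads and one-copy tags, and deposited, per library, the count of each distinct tag of 21 bases, without normalization, and TPM, the count per 1000000 clean tags. The submitters' processing notes name Bowtie 0.12.3, whose mapping was not used here.

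Each library's group came from its title. TPM was recomputed from the counts. Members were found by comparing each tag with its 51 one-base neighbours. The members, the lists and the tests were chosen with earlier results of these data known. Members named with values were the 12 most abundant, the extremes of the prenatal to postnatal, late to earlier and highest to median ratios, and those nearest the limits. Others were named after their values had been seen, as tags called with both scalings, tags that hold AATAAA or ATTAAA, tags with an LR counterpart, tags with no copies at 180 dpn, and tags alike over the libraries.

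Prenatal and postnatal LT libraries were compared over all tags with edgeR's quasi-likelihood test (TMM, filterByExpr, Benjamini-Hochberg), and adjacent LT libraries with a 2-sided exact binomial test, 0.01 TPM in place of 0. P-values measure the spread between pooled libraries of different stages, or counting error. Both tests were tested on simulated data. The simulation for the adjacent libraries held no spread between libraries, so it cannot show the false calls that such a spread would give. Alternatives were other limits of the rule, scaling by total clean tags, DESeq2, no low-count filter, merging of tags 1 base apart, each LT library left out and stricter limits. Software was edgeR 4.0.16 and DESeq2 1.42.0 in R 4.3.3, and scipy 1.17.1 and pandas 2.3.3 in Python 3.11.15.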

Additional observations from a re-analysis of the deposited data

Results flagged for a closer look

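In 16 of 98 groups, each tag's 5 prenatal or 5 postnatal LT libraries, one library lay farther from the others than Dixon's 95% limit, in 13 tags. Chance alone marks about 1 in 20 groups of normally distributed values. The limit was applied to TPM without a log transformation, and these are libraries of different stages, not replicates. The number of marks therefore cannot be set against that rate. Each of the 16 was the highest of its 5. At 2 dpn there were 7, tag 21 (42.4 TPM), tag 23 (30.3 TPM), tag 24 (33.3 TPM), tag 25 (20.8 TPM), tag 27 (23.8 TPM), tag 37 (22.9 TPM) and tag 46 (13.4 TPM). Tags 12 (14.0 TPM) and 15 (52.2 TPM) stood out at 180 dpn. Before birth, tags 21 (37.6 TPM), 28 (23.7 TPM) and 34 (25.0 TPM) stood out at 35 dpc, tag 23 (33.9 TPM) at 49 dpc, tags 37 (9.18 TPM) and 48 (15.7 TPM) at 63 dpc, and tag 14 (38.1 TPM) at 91 dpc. Tags 21, 23 and 37 did so in both periods. The part of the single pools in these levels was not tested.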

How the results depend on the processing

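The number of LT-only tags followed the limits of the rule. It was 105 with a minimum of 5 copies, 15 with 20 copies, 20 with 5 TPM, and 115 when LR copies of the tag alone were counted. It was 36 with LR tags 1 or 2 bases away counted, and 49 to 65 when a single LR or LT library was left out, which was added once values were known. At 120 and 180 dpn the counts of tags still present stayed within 1.5 times under the minimum of 3 copies or 3 TPM. Between the periods, where 17 tags were called, 5 were called without the low-count filter (3 higher before and 2 after birth) and 10 without 120 and 180 dpn (1 before birth, 9 after), 9 of them among the 17. Leaving out single LT libraries gave 11 to 20 calls, 3 to 6 higher before birth and 8 to 15 after, with 11 without 49 dpc. Of the common LT tags, 15.0% were called without the low-count filter and 18.5% without 120 and 180 dpn. With single LT libraries left out, 20.7% to 32.0% of them were called. With scaling by total clean tags 11 were called higher before birth and 1 after. With DESeq2 8 (16.3%) were called higher before birth and 15 (30.6%) after, against 13.3% and 26.1% of the common LT tags. The causes of these changes were not tested. None of the 17 changed direction under any alternative. Of the 126 calls between adjacent libraries (55 higher and 71 lower in the later one), 0 were left with an assumed coefficient of variation, in either direction. With TMM scaling there were 129 calls, 67 higher and 62 lower, so that the balance of directions turned. The number of calls stayed within 1.5 times of 126 under the other alternatives. No paired analysis was possible because each breed and stage has 1 library, so that replicate numbers pair nothing. Depth limits the rarest tags, since 10 copies stood for 1.88 to 3.82 TPM in LT.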
